A study of Homo sapiens with 30 samples.

Results

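The 35 genes described here make up the protein folding machinery of the endoplasmic reticulum (ER) and the sensors and transcription factors of the unfolded protein response, and each was found by its gene symbol in all 4 count tables, out of 57773 genes per table. They were grouped by role into 10 chaperones and co-chaperones, 6 protein disulfide isomerases and lectins, 4 genes of ER-associated degradation, 6 sensors and transcription factors, 5 genes of the translocon, and 4 genes of transport between ER and Golgi. The data are 22 RNA-seq libraries in 14 groups, made from 3 human lines of prostate cancer, in a study of the tumour suppressor RB1 and the histone demethylase LSD1 (KDM1A).

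VCaP cells, in which the androgen receptor gene is amplified, received a non-targeting siRNA (siNTC) or an siRNA against RB1 (siRB) at 20 nM for 2 days, with 3 libraries each. Their medium held 10% fetal bovine serum per the labels, whereas the library names refer to charcoal-stripped serum. C4-2-tet-shRB cells are C4-2 cells, a castration-resistant derivative of LNCaP, in which doxycycline switches on a short hairpin RNA against RB1. In the inhibitor experiment these cells had no doxycycline or 3 days of it at 0.05 µg/ml, and received DMSO or the LSD1 inhibitor GSK2879552 at 10 µM for 24 h, in 5% charcoal-stripped serum, with 2 libraries per group. Cells of the group without either agent are titled DMSO but labelled untreated. In the DHT experiment the same line had 0, 3 or 30 days of doxycycline and received vehicle or the androgen dihydrotestosterone (DHT) at 10 nM for 24 h, in 8% charcoal-stripped and 2% fetal bovine serum. LNCaP cells received vehicle (titled Veh but labelled untreated) or 1 µM GSK2879552 for 2 days in 5% charcoal-stripped serum. Each group of the DHT experiment and of the LNCaP experiment was 1 library read in 2 lanes, which were summed. No group combined doxycycline with a control hairpin, so effects of RB1 loss, of the hairpin and of doxycycline cannot be told apart in C4-2 cells.

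Secreted and membrane proteins enter the ER through the SEC61 translocon, are folded by chaperones such as HSPA5 (BiP), receive disulfide bonds from isomerases and leave for the Golgi in COPII vesicles. When unfolded protein builds up, the sensors ERN1 (IRE1), EIF2AK3 (PERK) and ATF6 respond: ERN1 splices the XBP1 transcript, EIF2AK3 slows translation and raises ATF4, and ATF6 is cleaved into a transcription factor. The luminal cell of the prostate is a secretory cell, and androgen is known to act on part of this machinery. Splicing of XBP1, cleavage of ATF6 and phosphorylation cannot be read from counts per gene.

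Promoters of these genes are known for short response elements that ATF6 and spliced XBP1 recognise, in the ER stress elements together with NF-Y. They were searched in RefSeq windows from 250 bases before to 50 bases after a gene's start (build GRCh38.p14), on both strands. The ER stress element, read as CCAAT, 9 bases of any kind and CCACG, was found in 7 of the 31 members with a window, or 21.4% of their 42 windows, against 0.0769% of all 35116 windows. A single CANX site lay in windows 2, 3 and 4 of that gene, which overlap, and was counted in each. Its short form ERSE-II, read as ATTGG, 1 base of any kind and CCACG, was found in 3 members (7.14% of windows against 0.0541%). The core of the unfolded protein response element, TGACGTGG, was found in 4 members (9.52% against 0.729%), but also in 11.3% of the 124 windows of other pathway genes, in which the ER stress element and ERSE-II had 0 matches. It can overlap ERSE-II, as it did in HYOU1. PDIA3, TRAM1, SEC24D and KDELR2 had no window in the table used. The promoters of 4 genes are shown because these genes carry the results that follow. HSPA5 fell and HERPUD1 rose with doxycycline in the inhibitor experiment, in both settings, XBP1 was the member that fell with DHT, and KDELR3 was among those with the largest rises. Each run gives the 250 bases before the start on the gene's strand, 5′ to 3′, with the match in capitals: the ER stress element in HSPA5 and XBP1, ERSE-II in HERPUD1, and the reverse complement of the TGACGTGG core in KDELR3. The regions are chr9:125241344-125241593 (minus strand) for HSPA5, chr16:56931892-56932141 (plus) for HERPUD1, chr22:28800570-28800819 (minus, the gene's window 2 of 2) for XBP1 and chr22:38467846-38468095 (plus) for KDELR3.
HSPA5: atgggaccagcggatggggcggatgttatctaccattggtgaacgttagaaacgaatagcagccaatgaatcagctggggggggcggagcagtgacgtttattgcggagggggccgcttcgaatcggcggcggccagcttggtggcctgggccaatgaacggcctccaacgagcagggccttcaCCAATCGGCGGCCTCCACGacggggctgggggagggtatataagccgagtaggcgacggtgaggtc
HERPUD1: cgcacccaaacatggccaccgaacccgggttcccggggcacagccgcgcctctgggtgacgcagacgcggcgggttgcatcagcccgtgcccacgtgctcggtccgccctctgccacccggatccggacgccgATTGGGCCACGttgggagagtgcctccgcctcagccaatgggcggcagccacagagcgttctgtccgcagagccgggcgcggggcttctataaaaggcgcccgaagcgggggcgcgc
XBP1: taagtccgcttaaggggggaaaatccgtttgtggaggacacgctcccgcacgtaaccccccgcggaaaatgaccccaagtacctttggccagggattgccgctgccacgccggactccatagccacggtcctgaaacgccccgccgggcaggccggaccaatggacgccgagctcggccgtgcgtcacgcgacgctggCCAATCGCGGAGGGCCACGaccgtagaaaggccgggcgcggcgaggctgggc
KDELR3: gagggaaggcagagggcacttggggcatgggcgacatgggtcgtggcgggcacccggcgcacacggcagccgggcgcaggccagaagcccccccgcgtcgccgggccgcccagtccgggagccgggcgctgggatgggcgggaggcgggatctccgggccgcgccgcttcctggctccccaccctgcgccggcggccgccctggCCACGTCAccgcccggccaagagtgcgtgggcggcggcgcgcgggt

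Matches to the ER stress element also stood in HSP90B1, CRELD2, PDIA6, CALR and CANX, and matches to ERSE-II in HYOU1 and SDF2L1. In the comparison of DHT with vehicle 12 of the 13 members with any match and 16 of the 18 with a window and no match passed the test upwards, with median log2 differences of 0.42 and 0.48. A match describes letters in a window and was not tested as a site.

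The libraries held 4311455 to 22326960 counted reads, with the lowest totals in VCaP cells. There the totals were 4311455 to 4551211 with siNTC and 6218938 to 7107036 with siRB, so depth and siRNA went together. RB1 followed the labels in every experiment: it stood at 56.2, 59.7 and 63.6 CPM (counts scaled to a common library total) with siNTC and at 5.32 to 7.38 with siRB, at 22.1 to 32.7 without and 4.64 to 6.74 with doxycycline in the inhibitor experiment, and at 48.1 and 51.0 without and 6.24 to 10.0 with doxycycline in the DHT experiment. Replicates of the inhibitor-only group in C4-2 cells differed most from each other, with a chi-square ratio of 7.88 (1 would be counting error alone) against 1.61 to 3.56 in the other groups of that experiment. All 9 luminal epithelial markers were present in each line. Leukocyte markers reached at most 0.818 CPM. Of the basal markers KRT14 had the highest level, 5.32 to 7.70 CPM in VCaP cells and at most 0.437 elsewhere. Neuroendocrine markers did not follow one order: CHGA and SYP were highest in VCaP cells (135 to 149 and 70.6 to 84.9 CPM, against at most 0.413 and 3.78 elsewhere), whereas ENO2 was highest in the C4-2 inhibitor experiment (199 to 274 CPM) and at 40.3 to 43.6 CPM in VCaP cells. Of the fibroblast markers COL1A1 had the highest level, up to 50.7 CPM in that C4-2 experiment. COL1A2 and DCN reached at most 0.964 and 0.207 CPM there. The endothelial VWF reached 23.0 CPM in LNCaP cells, where CDH5 was at 0. The share of all counts that fell on the 35 members was 1.31% to 1.39% in VCaP cells and 1.27% to 1.33% in the inhibitor experiment. Shares were lower in the DHT experiment (0.920% to 1.25%) and in LNCaP cells (0.652% and 0.739%), both made with total RNA kits, whereas the other tables were made with mRNA kits per the labels.

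The lectin chaperone CALR had the highest level per length of the members in the control libraries of all 4 experiments. Its level was 839 ± 34.0 CPM per kb of exon (SD, n = 3) in VCaP cells, 799 ± 14.1 (SD, n = 2) in C4-2 cells with DMSO, 552 in the C4-2 vehicle library and 389 in LNCaP cells. Below CALR in VCaP cells came HSP90B1, the ER member of the HSP90 family (505 CPM per kb), HSPA5 (339) and the membrane lectin CANX (322). In C4-2 cells with DMSO the order was HSPA5 (351), HSP90B1 (302) and the isomerase P4HB (294). HSPA5 was far lower in the vehicle library of the DHT experiment, at 38.0 CPM per kb, where kit, medium and experiment all differ, and that gap was not tested. The lowest member per length was KDELR3, a receptor that returns escaped ER proteins, in VCaP (1.25) and LNCaP cells (0.708). It was the co-chaperone DNAJC10 in C4-2 cells with DMSO (3.63) and ERN1 in the C4-2 vehicle library (4.04). DNAJC10 also had the longest exon union of the members, 21835 bases. Without division by length it was at 79.2 CPM in C4-2 cells with DMSO, above KDELR3 at 15.2.

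DHT was followed by higher RNA of nearly the whole group in C4-2 cells. Averaged over the doxycycline levels, 32 of the 35 members rose, 1 fell and 2 did not pass the test, at a Benjamini-Hochberg adjusted p under 0.05 in edgeR's quasi-likelihood test. The background is high: 25.1% of all 16504 genes tested rose and 23.9% fell. The members' median log2 difference was 0.48, against −0.02 for all genes. Each arm held 1 library per doxycycline level, and the fit took the DHT effect as equal at all levels. It had 2 residual degrees of freedom beside 22.0 borrowed across genes. Its p-values therefore rest mostly on a spread shared by all genes. For 32 members every DHT library was above every vehicle library, which held for 26.8% of all genes. XBP1 had all its DHT libraries below, which held for 26.4%, and only the co-chaperone DNAJB11 and the factor CREB3L2 overlapped. These are RNA amounts relative to a library's scaled total, so a change in total RNA per cell would not show.

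**Figure D1:**
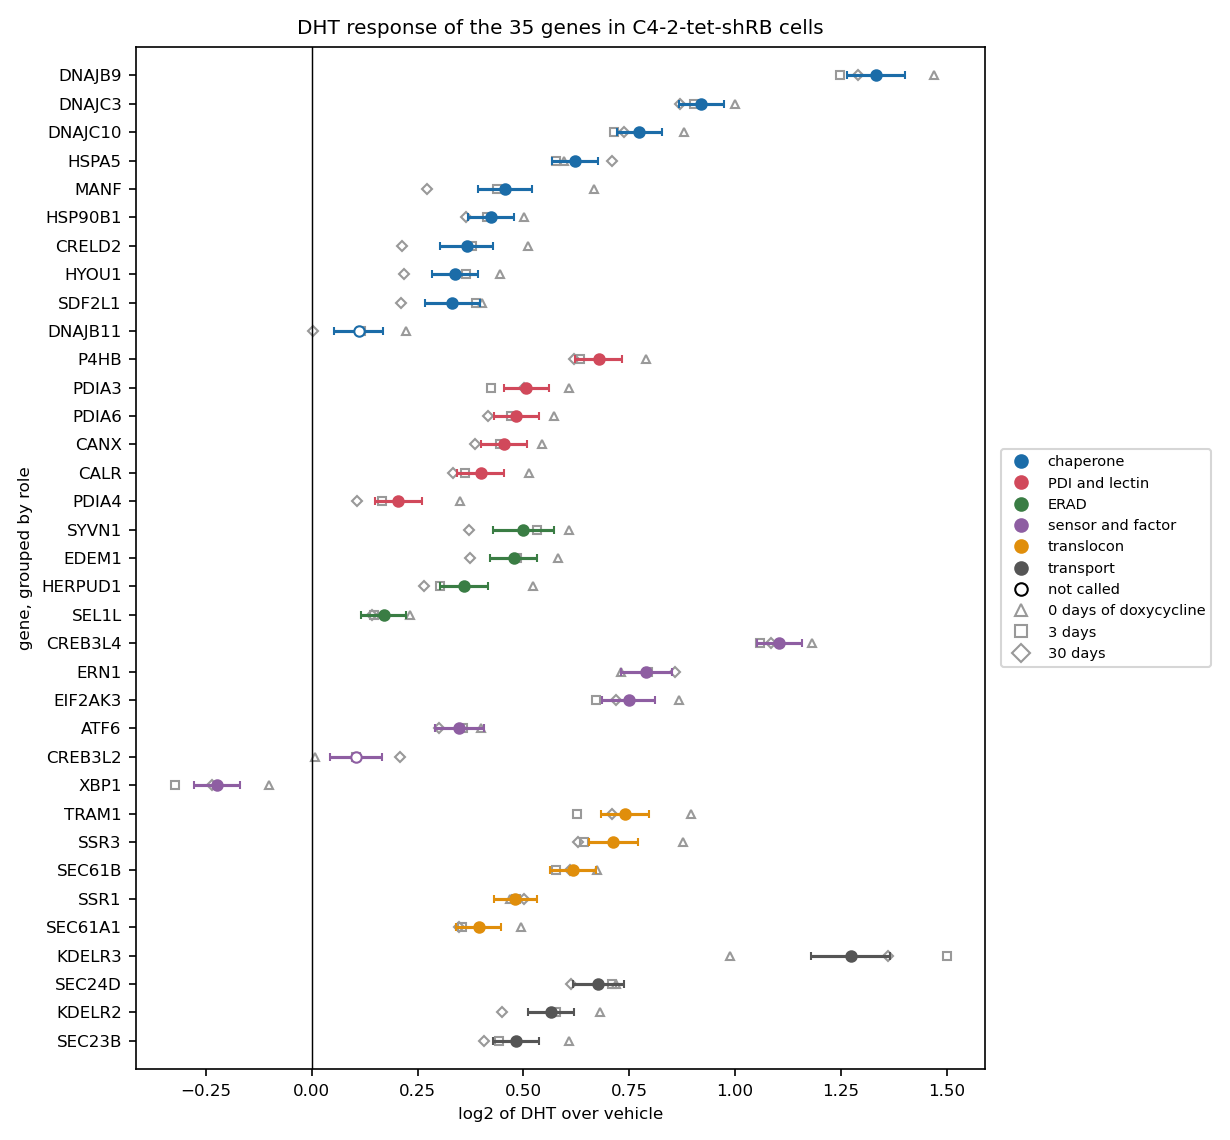
Log2 difference between DHT and vehicle for each of the 35 members in C4-2 cells, averaged over 0, 3 and 30 days of doxycycline, with bars of 1 SE and members grouped by role. XBP1 (−0.22) lies below 0, DNAJB11 and CREB3L2 did not pass the test, and DNAJB9, KDELR3 and CREB3L4 lie above 1.

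Among the chaperones 9 of 10 rose, with a median log2 difference of 0.44. DNAJB9 is a co-chaperone that delivers misfolded protein for degradation and holds ERN1 inactive. It stood at 26.0, 26.9 and 23.3 CPM with vehicle after 0, 3 and 30 days of doxycycline and at 72.1, 63.9 and 57.0 CPM with DHT. The lowest DHT library was thus above 2 times the highest vehicle library. The fitted log2 difference was 1.33 ± 0.068 (SE, n = 3 libraries per arm, 1 per doxycycline level; edgeR adjusted p = 1.85e-14). DNAJC3 (P58IPK), a co-chaperone of HSPA5, was at 121, 123 and 115 CPM with vehicle and at 242, 230 and 210 CPM with DHT, a log2 difference of 0.92 ± 0.053 (adjusted p = 2.75e-13). DNAJC10 (ERdj5), which reduces disulfide bonds of proteins bound for degradation, went from 204, 208 and 190 to 375, 341 and 316 CPM (log2 difference 0.77 ± 0.054, adjusted p = 8.80e-12). These 3 genes all encode J-domain proteins, while another of that class, DNAJB11, had 99.3, 104 and 100.4 CPM with vehicle and 116, 113 and 100.6 with DHT (adjusted p = 0.116).

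HSPA5, the main HSP70 chaperone of the ER and the partner that keeps the sensors inactive, was at 148, 142 and 109 CPM with vehicle and at 224, 211 and 177 CPM with DHT. Every DHT library was above every vehicle library, with a log2 difference of 0.62 ± 0.054 (adjusted p = 4.98e-10). HSP90B1 rose from 899, 844 and 779 to 1271, 1123 and 1003 CPM (log2 difference 0.42). The nucleotide exchange factor HYOU1 (0.34), SDF2L1 (0.33), the secreted factors MANF (0.46) and CRELD2 (0.37) also rose, each by less than HSPA5.

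All 6 isomerases and lectins rose, with a median of 0.47 on the log2 scale. P4HB, an isomerase that is also a subunit of prolyl hydroxylase, went from 733, 732 and 694 CPM to 1267, 1136 and 1066 CPM, a log2 difference of 0.68. PDIA3, the isomerase that works with CALR and CANX, rose by 0.51, PDIA6 by 0.48, CANX by 0.45 and CALR by 0.40 on the same scale. PDIA4 showed the smallest rise of this role, 0.20 (adjusted p = 0.00362). All 4 genes of ER-associated degradation rose as well: the ubiquitin ligase SYVN1 (HRD1) by 0.50, the mannosidase-like lectin EDEM1 by 0.48, the membrane scaffold HERPUD1 by 0.36 and the adaptor SEL1L by 0.17 (adjusted p = 0.00932).

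Sensors and factors did not move together: 4 of 6 rose and XBP1 fell. CREB3L4, a membrane-bound factor of the CREB3 family that is abundant in prostate, stood at 117, 125 and 122 CPM with vehicle and at 265, 259 and 260 CPM with DHT. The arms were far apart, and the log2 difference was 1.10 ± 0.053 (adjusted p = 6.40e-15). ERN1 went from 43.9, 42.7 and 41.2 to 72.8, 74.0 and 74.6 CPM (log2 difference 0.79), EIF2AK3 from 42.6, 43.2 and 40.9 to 77.8, 68.9 and 67.3 CPM (0.75), and ATF6 rose by 0.35. XBP1 went the other way, from 339, 367 and 321 CPM with vehicle to 315, 293 and 272 CPM with DHT, a log2 difference of −0.22 ± 0.055 (adjusted p = 0.00131). That call depends on the 3-day libraries: the difference was −0.17 without the vehicle library of 3 days (adjusted p = 0.0735), −0.17 without its DHT library (0.0861) and −0.18 without both (0.0571).

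The 5 translocon genes and the 4 transport genes all rose, with medians of 0.62 for both roles. KDELR3 stood at 15.3, 11.0 and 11.1 CPM with vehicle and at 30.3, 31.1 and 28.5 CPM with DHT, a log2 difference of 1.27 ± 0.094 (adjusted p = 3.18e-11). Its relative KDELR2 rose by 0.57, and the COPII coat genes SEC24D and SEC23B rose by 0.68 and 0.48. TRAM1, which helps chains into the translocon, went from 127, 137 and 128 to 237, 212 and 210 CPM (log2 difference 0.74), and SSR3, a subunit of the translocon-associated complex, from 405, 413 and 370 to 744, 645 and 573 CPM (0.71). SEC61B (0.62), SSR1 (0.48) and SEC61A1 (0.39) complete the role.

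**Figure D2:**
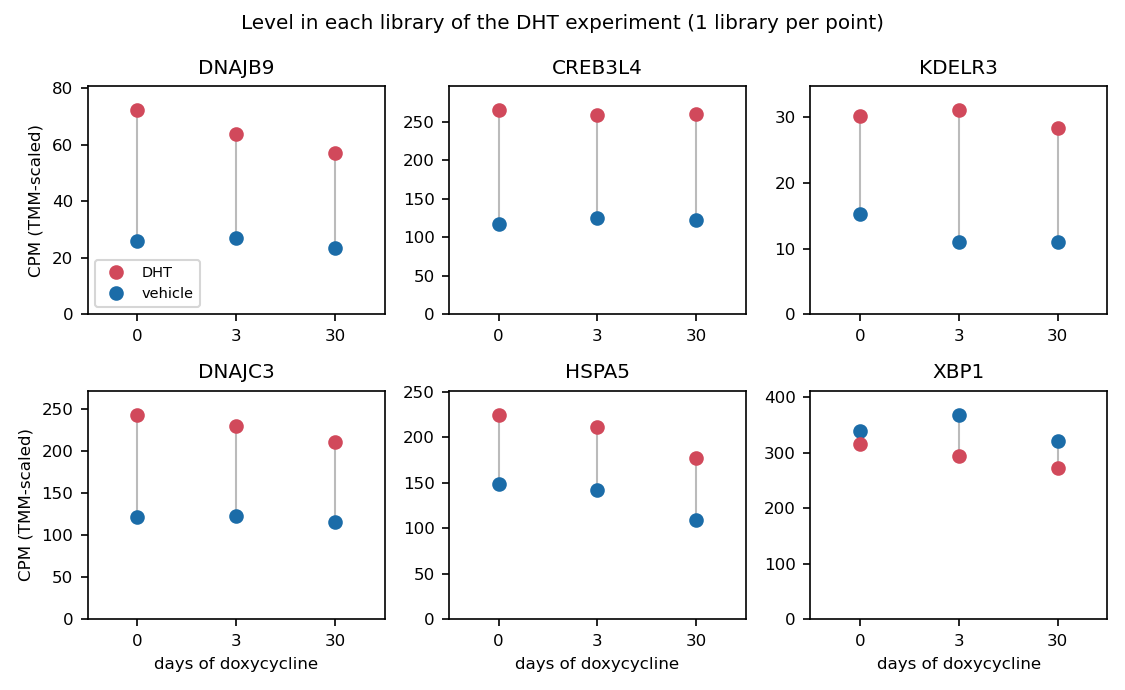
CPM per library of DNAJB9, CREB3L4, KDELR3, DNAJC3, HSPA5 and XBP1 in C4-2 cells against days of doxycycline (0, 3, 30), with vehicle in blue and DHT in red, 1 library per point. In the first 5 genes the DHT point lies above the vehicle point at each day, and in XBP1 below it.

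Other genes of the pathway, 106 of them measured, showed 76 rises and 9 falls, with a median log2 difference of 0.33. EDEM3, which trims mannose from misfolded glycoproteins, went from 103, 106 and 116 to 321, 332 and 378 CPM (log2 difference 1.66 ± 0.053, adjusted p = 1.79e-18), and the COPII GTPase SAR1B rose by 0.98 (adjusted p = 9.31e-14). By smallest p, the falls were led by ATF4 and TRIB3, while PPP1R15A, which like them acts downstream of EIF2AK3, rose by 0.59 (adjusted p = 0.00284). ATF4, a transcription factor, went from 543, 557 and 526 to 324, 282 and 291 CPM (log2 difference −0.86 ± 0.056, adjusted p = 2.03e-12), and its target TRIB3 from 273, 285 and 278 to 156, 152 and 143 CPM (−0.90, adjusted p = 4.49e-13). All DHT libraries of ATF4 and TRIB3 were below all vehicle libraries. Among the other control genes of the response 5 rose and 4 fell of 11.

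Scaling bears on these sizes. Scaling factors were 1.06 to 1.07 in vehicle and 0.921 to 0.956 in DHT libraries, and scaling by total counts moved the median of all genes to −0.20 and that of the members to 0.30. The count of rises was then 29, as PDIA4, SEL1L and SDF2L1 no longer passed. The share of all genes that rose under that scaling is not given.

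Whether the DHT response differed with RB1 depleted was asked of each doxycycline level and of the pooled difference. More than 1.5 times as much RNA with DHT was found for 18 of 35 members without doxycycline, 11 after 3 days and 13 after 30 days, where 11.4%, 9.23% and 8.76% of all genes were that much higher. Only genes with 100 or more counts over both libraries were used. None was that much lower at any level, where 10.2%, 7.23% and 7.21% of all genes were. With total count scaling the counts were 8, 5 and 5, and the shares of all genes under that scaling are not given. These are ratios of 1 library to 1 library and carry no test. The median log2 ratio of the members was 0.60, 0.47 and 0.41 at 0, 3 and 30 days, beside 0.02, 0.00 and 0.02 for all genes. The ratio without doxycycline was above that at 3 days in 31 members and above that at 30 days in 30. ERN1, CREB3L2, SSR1 and KDELR3 had their lower ratio without doxycycline.

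In the test of the pooled difference, no member passed, and 1.4% of all genes did. At an unadjusted p under 0.05, 1 member was higher and 7 were lower in edgeR, and DESeq2 also called 0. Of all 17300 genes, 1037 were higher and 839 lower by that edgeR limit. The difference was negative in 30 of 35 members, with a median of −0.15 on the log2 scale against 0.00 for all genes. MANF came nearest at −0.31 ± 0.094 (adjusted p = 0.0664): it stood at 105 and 167 CPM with vehicle and DHT without doxycycline, at 109 and 147 after 3 days and at 98.2 and 119 after 30 days. This fit has 1 residual degree of freedom and rests on the 2 libraries without doxycycline. Its spread was taken wholly from all genes, so a single gene's own spread had no weight. On simulated data this fit recovered 39% of log2 differences of 0.5 and 82% of those of 1, and smaller ones were not simulated. Of the other pathway genes SSR2 (−0.36, adjusted p = 0.00415) and SEC11C (−0.38, 0.00604) passed, both lost with DESeq2 (0.497 and 0.941), and so did VIMP (−0.40, 0.0338).

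Longer doxycycline treatment was accompanied by lower HSPA5 and a few other members in the same experiment. After 30 days 5 of 35 members fell and none rose against no doxycycline, with DHT in the model, where 1.55% of all genes fell and 2.51% rose. The members' median log2 difference was −0.16, against 0.00 for all genes, and 31 of 35 were negative. HSPA5 was at 109 CPM with vehicle and 177 with DHT after 30 days, each below its counterparts of 0 days (148 and 224) and 3 days (142 and 211). The log2 difference was −0.39 ± 0.066 (adjusted p = 7.50e-04), and it passed with each library left out. The other falls were SEC24D (−0.36, adjusted p = 0.00493), HSP90B1 (−0.27, 0.0175), MANF (−0.30, 0.0281) and SSR3 (−0.26, 0.0341). MANF and SSR3 did not pass with DESeq2, with total count scaling or without the DHT library of 0 days. SEC24D went from 56.6 and 93.1 CPM with vehicle and DHT to 45.9 and 70.2 CPM.

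The other pathway genes showed 8 falls and no rise of 106, led by MAGT1, a subunit of the oligosaccharyltransferase (−0.29, adjusted p = 0.0120), and the isomerase FKBP11 (−0.44, 0.0183). Single libraries weigh heavily here: of the 5 falls among members only that of HSPA5 still passed without the DHT library of 30 days. More members passed without the vehicle library of 0 days, but the share of all genes in that fit is not given.

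After 3 days no member passed in the DHT experiment, with 0.442% of all genes called. Without adjustment, edgeR had 0 members higher and 1 lower by p under 0.05, and DESeq2 called 0. Of all 16504 genes, 920 were higher and 751 lower by that edgeR limit. The median log2 difference was −0.06 and 30 of 35 were negative, with SEC24D at −0.18 (adjusted p = 0.376) and HSP90B1 at −0.14 (0.498). Some members passed without the vehicle library of 0 days, but the share of all genes in that fit is not given. Between 30 and 3 days HSPA5 alone passed, at −0.32 ± 0.066 (adjusted p = 0.0268), where 0.0727% of all genes fell. It did not pass with DESeq2 (0.0954), with total count scaling (0.0678) or without any one of the 4 libraries with doxycycline (0.0838 to 0.628).

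In the inhibitor experiment 3 days of doxycycline went with lower HSPA5 and higher HERPUD1, both with DMSO and with GSK2879552. With DMSO 6 members rose and 2 fell, where 4.25% of all genes rose and 3.59% fell. With the inhibitor 8 rose and 2 fell, where 4.52% rose and 3.2% fell. HERPUD1, XBP1, CREB3L2 and KDELR3 rose in both settings, 4 of the 6 rises with DMSO and 4 of the 8 with the inhibitor, and HSPA5 was the only member that fell in both, 1 of 2 in each. The settings have separate control libraries. The members' median log2 differences were 0.14 and 0.13, against 0.00 and 0.01 for all genes.

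HSPA5 stood at 1364 and 1383 CPM with DMSO and at 965 and 968 CPM with doxycycline and DMSO. With the inhibitor it stood at 1411 and 1343 CPM, and with doxycycline besides at 932 and 937 CPM. The 4 libraries with doxycycline were all below the 4 without, and the log2 differences were −0.51 ± 0.054 (adjusted p = 2.92e-05) and −0.56 ± 0.054 (adjusted p = 1.22e-05). HERPUD1, which takes unfolded proteins to the ubiquitin ligase SYVN1, went the other way, from 155 and 169 to 228 and 231 CPM with DMSO and from 164 and 170 to 219 and 225 CPM with the inhibitor. Its log2 differences were 0.50 ± 0.065 (adjusted p = 2.00e-04) and 0.41 ± 0.065 (adjusted p = 0.00100). Both genes passed with each library left out, in both settings.

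XBP1 was at 309 and 297 CPM with DMSO against 373 and 358 with doxycycline, and at 332 and 325 with the inhibitor against 381 and 389 with both. The groups did not overlap, and the log2 differences were 0.27 (adjusted p = 0.00904) and 0.23 (adjusted p = 0.0230). With DMSO XBP1 did not pass once any single library of the DMSO groups was left out. With the inhibitor XBP1 did not pass with a replicate block or without any one library with doxycycline. KDELR3 rose by 0.40 and 0.47 on this scale (adjusted p = 0.0317 and 0.0116), and CREB3L2, a factor of secretory cells, by 0.23 and 0.24 (adjusted p = 0.0498 and 0.0418). SDF2L1, a partner of HSPA5 and DNAJB11, rose with DMSO from 47.9 and 45.3 to 67.9 and 64.8 CPM (log2 difference 0.51, adjusted p = 0.00248). This call was lost without replicate 2 of DMSO or replicate 1 of doxycycline with DMSO. With the inhibitor SDF2L1 went from 41.9 and 51.0 to 56.3 and 54.1 CPM and did not pass (0.26, adjusted p = 0.100).

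SEC61B also rose with DMSO (0.25, adjusted p = 0.0303). DNAJC3 fell with DMSO, from 63.2 and 63.1 to 50.5 and 52.8 CPM (−0.29, adjusted p = 0.0407). With DMSO the calls of KDELR3 and DNAJC3 were lost with DESeq2, and those of KDELR3, DNAJC3, SEC61B and CREB3L2 once any single library of the DMSO groups was left out. With the inhibitor the further rises were SSR3 (0.33, adjusted p = 0.0112), DNAJC10 (0.42, 0.0227), SEL1L (0.27, 0.0269) and CANX (0.23, 0.0310), and KDELR2 fell (−0.26, 0.0411; 0.0651 with total count scaling). With the inhibitor the calls of CREB3L2, CANX, SEL1L and KDELR2 were lost with a replicate block. They were also lost without any one library of the DMSO groups or of doxycycline with inhibitor. The call of DNAJC10 was lost without either library of DMSO alone or of doxycycline with inhibitor. Those of SSR3 and KDELR3 were lost without replicate 2 of doxycycline with inhibitor. Across both settings together, 13 members had every doxycycline library above every other and 5 below, which held for 9.87% and 9.1% of all genes. The 5 were HSPA5, DNAJC3, KDELR2, EDEM1 and CALR.

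**Figure D3:**
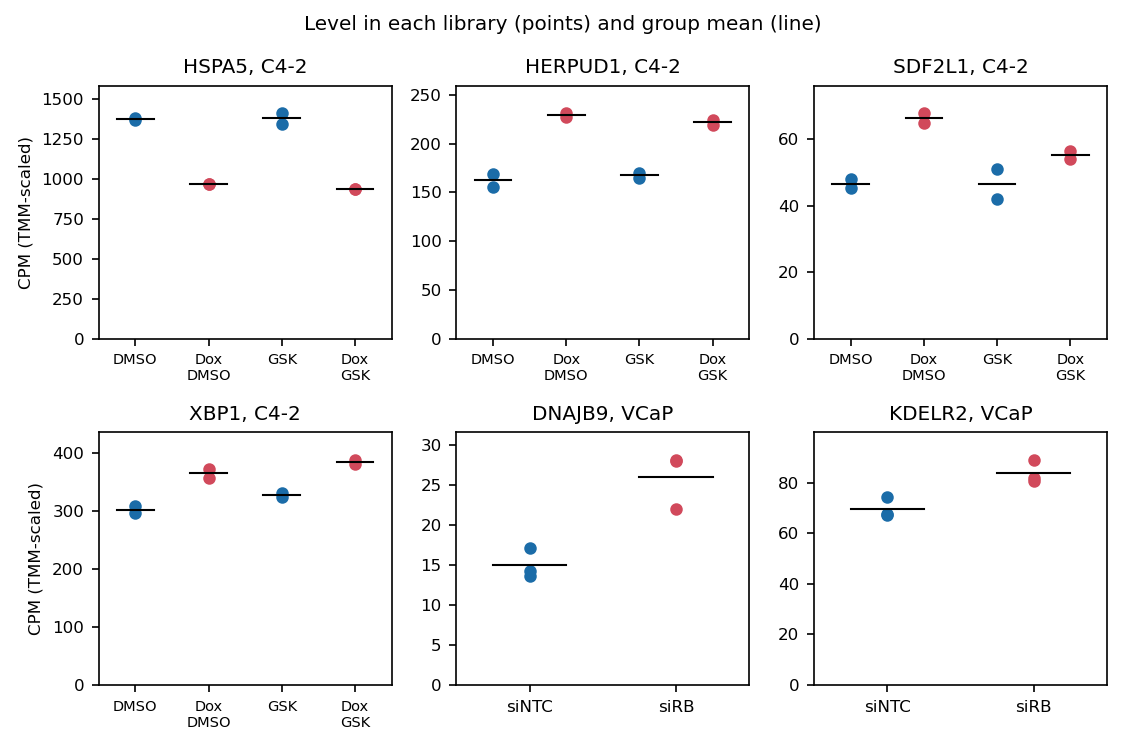
CPM per library of HSPA5, HERPUD1, SDF2L1 and XBP1 in the 4 groups of the C4-2 inhibitor experiment (2 libraries each) and of DNAJB9 and KDELR2 in VCaP cells (3 libraries each). HSPA5 is lower and HERPUD1 and XBP1 are higher in all libraries with doxycycline, and DNAJB9 and KDELR2 are higher in all libraries with RB1 siRNA.

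Of 107 other pathway genes 13 rose and 2 fell with DMSO, and 12 rose and 3 fell with the inhibitor. TRIB3 rose by 0.48 and 0.57 (adjusted p = 0.00107 and 2.59e-04), the isomerase FKBP11 by 0.42 with DMSO (0.00546) and the degradation factor DERL3 by 0.79 with the inhibitor (8.55e-04). The COPII gene SEC23A fell by 0.65 and 0.72, and the signal peptidase subunit SPCS3 fell by 0.60 and 0.67. With 1 library left out at a time, members lost or gained calls in both settings. With the inhibitor only HSPA5 and HERPUD1 kept their calls without replicate 2 of doxycycline with inhibitor. More members passed in both settings without an inhibitor-only library. Shares of all genes in those fits are not given, so these changes cannot be set against a background.

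The 3-day doxycycline differences of the inhibitor experiment and of the DHT experiment differed for HSPA5 and HERPUD1. HSPA5 was at −0.07 (adjusted p = 0.778) and HERPUD1 at −0.08 (adjusted p = 0.770) on the log2 scale after 3 days in the DHT experiment. In a fit of both tables the difference in the DHT experiment was compared with that of the inhibitor experiment with DMSO. The first minus the second was 0.42 ± 0.088 for HSPA5 (adjusted p = 0.0103) and −0.59 ± 0.10 for HERPUD1 (adjusted p = 0.00161). These were the only 2 of 35 members to pass, where 1.05% of all genes did, and the members' median was −0.18. RB1 fell by 2.49 in one and by 2.18 with DMSO in the other on the log2 scale. The experiments differ in medium, in RNA kit and in the presence of DHT libraries in the fit, and these cannot be told apart.

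**Figure D4:**
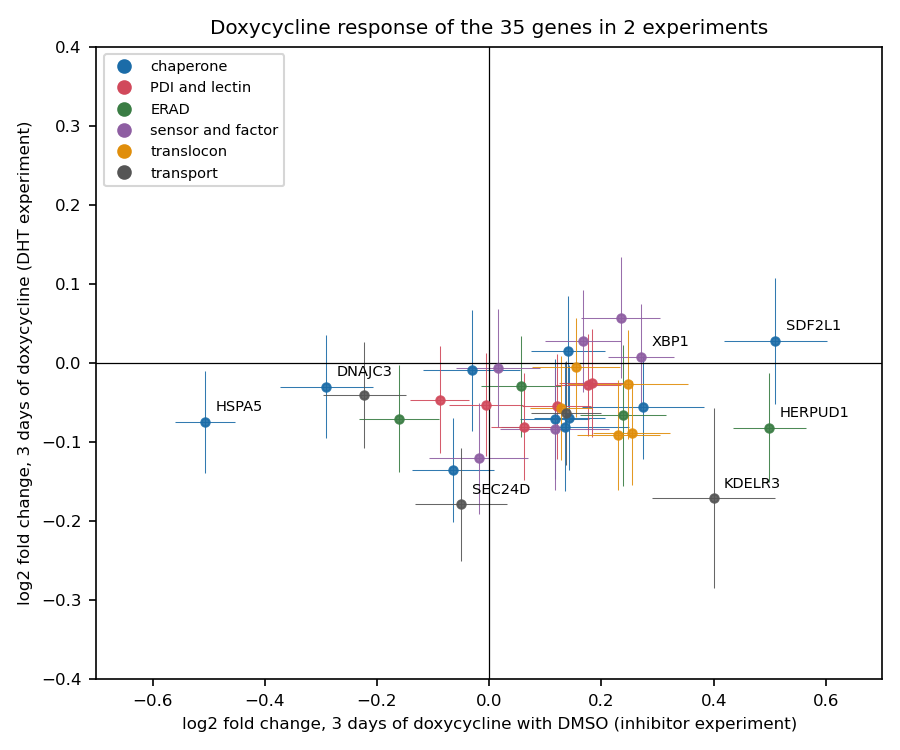
Log2 difference with 3 days of doxycycline for each member in the inhibitor experiment (x axis, DMSO groups) and in the DHT experiment (y axis), with bars of 1 SE. HSPA5 (−0.51 and −0.07) lies far to the left and HERPUD1 (0.50 and −0.08) far to the right, both near 0 on the y axis.

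The LSD1 inhibitor for 24 h left no member past the threshold in C4-2 cells. Without doxycycline 0 of 35 passed, with 0.678% of all genes called (125 genes, nearly all rises). At an unadjusted p under 0.05, edgeR had 2 members higher and 1 lower, and DESeq2 called 0. Of all 18423 genes, 1233 were higher and 983 lower by that edgeR limit. SEC61B came nearest, at 97.0 and 106 CPM with DMSO against 123 and 121 CPM with the inhibitor, a log2 difference of 0.27 ± 0.069 (adjusted p = 0.0892). SEL1L was at −0.18 (adjusted p = 0.318).

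With doxycycline 0 members passed as well, with 1.34% of all genes called. Unadjusted, 4 members were higher and 1 lower by p under 0.05 in edgeR, and DESeq2 called 0. Of all 18423 genes, 1249 were higher and 726 lower by that edgeR limit. ERN1 stood at 71.6 and 76.5 CPM with doxycycline and DMSO and at 88.3 and 89.5 CPM with the inhibitor, without overlap, and its log2 difference of 0.26 ± 0.073 did not pass (adjusted p = 0.109). SDF2L1 was at −0.26 (adjusted p = 0.225). Of the other pathway genes, the oxidase ERO1L (0.41, adjusted p = 0.0352) and the isomerase PDIA5 (0.33, 0.0402) rose. The test of the difference between both inhibitor effects called 0 members and 0.0163% of all genes, and DESeq2 called 0 members. At an unadjusted p under 0.05 in edgeR, 1 member was higher, and of all 18423 genes 464 were higher and 415 lower. On simulated data this test of the difference recovered 34% of log2 differences of 0.5 and 89% of those of 1. Members' medians were 0.05 without and 0.06 with doxycycline. The counts rest on the inhibitor-only pair: in each of these comparisons at least 1 member passed once replicate 1 of that pair was left out. Shares of all genes in those fits are not given.

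RB1 siRNA was followed by higher DNAJB9 in VCaP cells. In total 4 of 35 members rose and none fell, where 2.96% of all genes rose and 2.65% fell, and 28 of 35 log2 differences were positive with a median of 0.07 against 0.00 for all genes. DNAJB9 stood at 13.7, 17.1 and 14.3 CPM with siNTC and at 22.0, 28.1 and 28.2 CPM with siRB. The groups did not overlap, and the log2 difference was 0.79 ± 0.12 (SE, n = 3 libraries per group; edgeR adjusted p = 1.15e-06). Replicates within these groups differed little beyond counting error (chi-square ratios of 1.13 to 1.39). The labels do not say whether they are separate cultures. KDELR2, a retrieval receptor, went from 67.6, 74.3 and 67.1 to 80.8, 82.1 and 89.2 CPM (0.27 ± 0.063, adjusted p = 0.00270), a call lost with DESeq2 (0.0662). HERPUD1 and P4HB rose by 0.18 (adjusted p = 0.0232) and 0.11 (0.0162). HERPUD1 did not pass without siNTC replicate 1, 2 or 3 or siRB replicate 1 (0.0502 to 0.142) or with DESeq2 (0.202), and P4HB did not without siNTC replicate 2 or 3 or siRB replicate 1 or 2 (0.0793 to 0.122). HSPA5 was at 1325 ± 13.1 CPM with siNTC and 1394 ± 21.6 CPM with siRB (SD, n = 3) and did not pass at a log2 difference of 0.07. In 11 members every siRB library was above every siNTC library and in none below, which held for 10.7% and 10.6% of all genes.

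The other pathway genes showed 9 rises and no fall of 106, and 4 of these rises were among the 12 other control genes of the response. PPP1R15A (GADD34), the phosphatase subunit that restores translation, went from 43.0, 44.2 and 40.3 to 64.4, 65.7 and 64.8 CPM (log2 difference 0.61 ± 0.075, adjusted p = 1.23e-09). ATF4 rose by 0.23 (adjusted p = 3.81e-06).

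In LNCaP cells 2 days of 1 µM GSK2879552 went with more ERN1 RNA and less CREB3L4 RNA. With 1 library per group there is no test, and the intervals cover counting error only. Of the 34 members with 100 or more counts over both libraries, 4 were more than 1.5 times higher and 1 was that much lower, where 6.74% and 7.51% of all genes were. ERN1 went from 740 to 1596 counts (53.2 to 121 CPM), a scaled ratio of 2.27 with a 95% Clopper-Pearson interval of 2.08 to 2.48. DNAJB9 went from 91 to 178 counts, a ratio of 2.06 (1.59 to 2.68), DNAJC10 had a ratio of 1.73 (1.57 to 1.91) and SEC24D one of 1.61 (1.41 to 1.85). CREB3L4 stood at 66.6 CPM with vehicle and 41.7 with the inhibitor, a ratio of 0.626 (0.563 to 0.697).

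The next lowest ratios were those of SYVN1 (0.706), MANF (0.738), CRELD2 (0.771) and HSPA5 (0.791, from 6121 to 4592 counts). Intervals lay above 1 for 22 members and below 1 for 5, and the median log2 ratio was 0.24 against −0.01 for all genes. Of all 11955 genes with enough counts, 3192 had intervals above 1 and 3672 below 1. Of 102 other pathway genes 8 were higher and none lower past the same limit. DDIT3 (CHOP), a factor of sustained ER stress, had a ratio of 2.81 (2.48 to 3.18), and TRIB3 one of 2.56. The androgen target KLK3 fell from 566 to 271 CPM between the same 2 libraries. Dose and time differ from the C4-2 experiment (10 µM, 24 h), where ERN1 stood at 74.0 and 72.6 CPM with DMSO against 80.2 and 74.1 with the inhibitor.

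**Figure D5:**
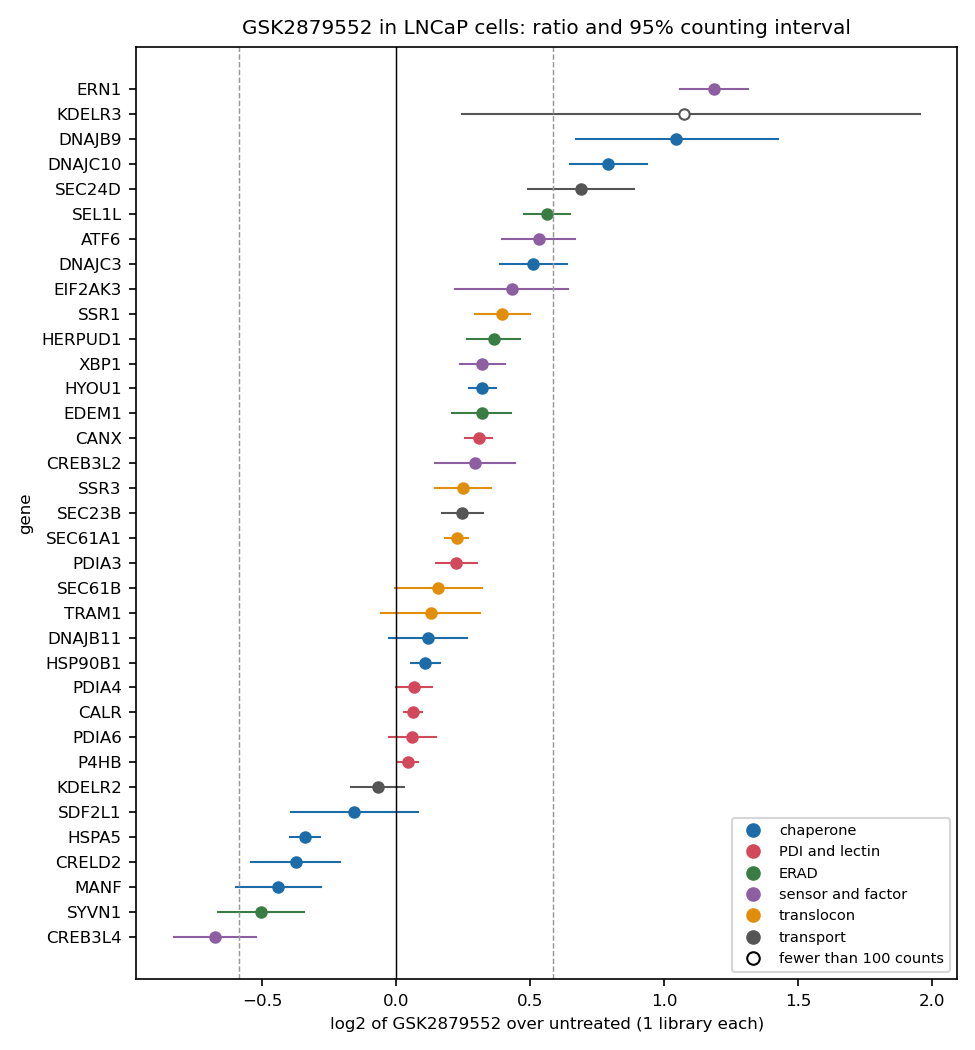
Log2 ratio of inhibitor to vehicle for the members in LNCaP cells, 1 library each, with 95% counting intervals and dashed lines at 1.5-fold. ERN1, DNAJB9, DNAJC10 and SEC24D lie above the upper line and CREB3L4 below the lower one, and the open point has fewer than 100 counts.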

How the data were processed

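The deposited tables hold counts of raw reads per Ensembl gene, which the authors made with FastQC 0.11.9, STAR 2.7.2 and featureCounts 1.6.4 on hg19 (GRCh37), per the submitters' processing notes. Strand setting, annotation and treatment of multiply aligned reads are not given in the sources used here, so reads of a gene and of an antisense partner or a near-identical copy (HSPA5 and HSP90B1 have pseudogenes) cannot be told apart. The 35 members and the lists of other genes were chosen with earlier results of these data known. All 30 columns were mapped to samples and 0 were not.

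Both columns of a group in the DHT and LNCaP tables share a library name and index and differ by counting error alone (chi-square ratio under 1.5), and were summed as lanes. The labels do not say whether replicates are separate cultures, so a p-value reflects only how these samples vary, which may be technical. Each table was fitted with edgeR 4.0.16 in R 4.3.3 (TMM, filterByExpr, quasi-likelihood F test, adjusted p under 0.05 by Benjamini-Hochberg over all genes tested). Biological coefficients of variation were 2.27% to 5.79%. The inhibitor experiment was fitted as 4 groups and the DHT experiment as doxycycline level plus DHT. The difference in DHT response took 0 days against 3 and 30 days. The difference between C4-2 tables came from both tables fitted together with separate terms for each table. It used the doxycycline difference with DMSO of the inhibitor experiment. Log2 differences are edgeR's, and SEs are the log2 difference divided by the square root of F. CPM used TMM-scaled totals within a table.

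Libraries without replicates were compared as TMM-scaled ratios of genes with 100 or more counts over both libraries and a limit of 1.5-fold, with 95% Clopper-Pearson intervals for counting error. Lengths per gene are exon unions of GENCODE v29 matched by Ensembl ID, a source chosen after the tables were seen, and levels between tables were set separately. Promoters came from RefSeq on GRCh38.p14 and were matched by symbol, since the counts use another build. Values per library were given by rule for up to 4 members per direction with the smallest p among those past the threshold, for 2 where none passed, for the 3 largest and 3 smallest ratios without a test, and for up to 2 other pathway genes per direction. Further members, VIMP and the ATF4 branch were named after their values were seen. Alternatives were DESeq2 1.42.0, its size factors, no low-count filter, a replicate block, each library left out, and, chosen after seeing the data, total count scaling and both libraries of a doxycycline level left out. The fits were tested on simulated data.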

Additional observations from a re-analysis of the deposited data

Results flagged for a closer look

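The effect of 3 days of doxycycline on HSPA5 differed between the C4-2 experiments. The difference in the DHT experiment was higher by 0.42 on the log2 scale than that with DMSO in the inhibitor experiment. For HERPUD1 the same difference was −0.59. Both come from a test of the difference itself over both tables.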

How the results depend on the processing

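Of the 35 members, the count called for DHT in C4-2 cells was 33 and ranged from 32 to 34 with each library left out, and was 30 with total count scaling. Counts of other comparisons also moved, and the cause was not tested. Counts over all genes under the alternative settings are not given beside them, here or below. With each library left out, VCaP went from 4 to between 2 and 5, doxycycline with DMSO from 8 to between 2 and 18, doxycycline with inhibitor from 10 to between 2 and 14, 3 days in the DHT experiment from 0 to between 0 and 3, 30 days from 5 to between 1 and 22, and 30 against 3 days from 1 to between 0 and 5. For the inhibitor the counts of 0 went to between 0 and 4 without doxycycline, 0 and 3 with it, and 0 and 1 for the difference. Where this leaves 1 library in a group, that library is assumed to vary like the others.

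With DESeq2 the count was 2 in VCaP cells, 3 at 30 days and 0 for 30 against 3 days. Total count scaling gave 3 at 30 days, 0 for 30 against 3 days, and 8, 5 and 5 instead of 18, 11 and 13 for DHT at 0, 3 and 30 days. Without the low-count filter the count was 13 for doxycycline with DMSO, 1 for the inhibitor without doxycycline and 4 for the difference between C4-2 tables.

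Replicate numbers did not pair the samples: deviations of same-numbered libraries correlated at 0.0103 to 0.0284 in VCaP cells and at −0.125 to 0.0353 in the inhibitor experiment. With the number as a replicate block the counts were 4 in VCaP cells, 4 for doxycycline with DMSO (without CREB3L2, SEC61B, DNAJC3 and KDELR3), 5 for doxycycline with inhibitor and 0 for the inhibitor. Replicates could not be paired in the DHT and LNCaP experiments, where each group is 1 library. The DHT fit compared DHT with vehicle within each doxycycline level.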

Other observations

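The ATF4 branch of the response was followed across experiments after its values had been seen. DDIT3, a target of ATF4, stood at 33.3, 31.4 and 27.0 CPM with vehicle and at 21.7, 19.4 and 15.6 CPM with DHT after 0, 3 and 30 days of doxycycline, without overlap, and fell by 0.70 on the log2 scale (edgeR adjusted p = 4.96e-08). PPP1R15A, another gene of this branch, rose by 0.59 there (adjusted p = 0.00284). In VCaP cells with RB1 siRNA DDIT3 rose from 30.3, 29.6 and 32.8 to 37.8, 42.7 and 39.6 CPM (0.37, adjusted p = 0.00435) and TRIB3 by 0.26 (adjusted p = 0.00499).

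In the C4-2 inhibitor experiment ATF4 rose with doxycycline and DMSO by 0.21 (adjusted p = 0.0451), and its value with the inhibitor was 0.21 (adjusted p = 0.0513). DDIT3 was at 0.01 with DMSO (adjusted p = 0.978) and rose by 0.33 with the inhibitor (adjusted p = 0.025). After 30 days of doxycycline in the DHT experiment DDIT3 fell by 0.38 (adjusted p = 0.0257), while ATF4 (−0.10, adjusted p = 0.489) and TRIB3 (−0.05, adjusted p = 0.782) did not pass. DDIT3 went from 348 to 927 counts in the pair of LNCaP libraries with the inhibitor.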
